A study of Mus musculus with 2 samples.

Results

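The genes described here encode 35 enzymes that make, interconvert or remove the building blocks of RNA and DNA. They were found in the deposited table by their symbols, 35 of 16803 rows in all. RNA came from NE4C cells, an established mouse neural stem cell line, with 1 library of untreated cells (control) and 1 of cells given homocysteine thiolactone (HTL), a cyclic, reactive derivative of homocysteine that modifies protein lysines. The dose and the duration of the treatment are not given for these cultures. As background, NE4C cells were derived from mouse embryos that lack the tumour suppressor Trp53. The study asked how HTL alters gene expression in a model of neural tube development. Each condition had 1 library, so no difference has a replicate check, and every interval covers counting error between these libraries only.

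Purine and pyrimidine nucleotides are built by separate routes that both draw on phosphoribosyl pyrophosphate (PRPP), an activated sugar. The purine ring is assembled step by step on that sugar up to inosine monophosphate (IMP), which is then turned into AMP or GMP. The pyrimidine ring is made first and joined to the sugar afterwards, giving UMP and later CTP. Ribonucleotide reductase converts ribonucleotides into deoxynucleotides for DNA, thymidylate is made from dUMP, and salvage enzymes recover free bases and nucleosides. Dividing neural progenitors depend on these pathways, and folate carries carbon units for the purine ring and for thymidylate.

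The control library held 10350665 reads and the HTL treatment library 9102076, after estimated reads per gene were rounded. A gene was tested where the libraries summed to 10 reads or more, which left 13442 of 16803 genes, and 0.5 read was added for log2 ratios. The median log2 ratio (HTL treatment to control, scaled to the column sums) of all genes tested was -0.14, and other scalings raised all log2 ratios by 0.093 to 0.14. Of 11 neural stem cell markers, 10 were tested, and they went both ways. By the call rule given below, 3 were lower (log2 ratios of -1.01 for Vim, -1.46 for Sox2 and -1.78 for Sox1) and Notch1 was higher (1.08). The other 6 ran from -0.37 (Cdh2) to 0.51 (Prom1), with Nes at 25.1 and 24.1 FPKM (a level scaled to transcript length and library size) in control and HTL treatment. All 7 neuron markers were tested, with Dcx called lower (88 and 29 reads, -1.40), Snap25 and Map2 at -1.01 and -0.60, and Tubb3 and Stmn2 at 0.60 and 0.57. Of the glial lists, the astrocyte gene Aldh1l1 was called higher (21 and 56 reads, 1.58), and Mbp of oligodendrocytes had 182 and 186 reads. Gfap had 2 and 0 reads, Mog 0 and 1, and the microglial gene Aif1 3 and 0. Of 5 fibroblast markers, 4 were tested and 0 called, with Col1a1 and Col1a2 each at 12 and 25 reads (1.21, 0.20 to 2.37). Pdgfra (45 and 27 reads, -0.54) and Dcn (16 and 13 reads, -0.11) lay on the other side of 0. The part of cell state in the members' values was not tested, and fewer cells of a kind cannot be told apart from less RNA per cell.

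Promoters of the members were looked at for short sequence motifs, since enzymes of these routes are textbook targets of the factors Myc and E2F. RefSeq windows (GRCm38.p6) of 300 bases, from 250 before to 50 after a start site, matched 32 of the 35 members in 42 windows. Pfas, Dhodh and Rrm2b were not matched. The E-box CACGTG, which reads the same on both strands, was in 14.3% of the members' windows, in 7.15% of all 32851 windows and in 9.82% of the 13553 windows of genes tested. An E2F-type sequence, taken as TTCCCGC on either strand or its variants TTGGCGC and also TTCGCGC, was in 21.4% of the members' windows, in 8.07% of all windows and in 14.2% of those of genes tested. CCAAT on either strand was in 31% of the members' windows, in 37.4% of all windows and in 38.1% of those of genes tested. TGATGCA, the core of the C/EBP-ATF element, was in 7.14% of the members' windows on either strand, in 3.15% of all windows and in 1.93% of those of genes tested. These were 3 windows of 2 members, Guk1 and Ampd2, and those of Ampd2 overlap. A match describes letters in the window and is not a binding site.

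The 5 members with an E-box, Paics, Impdh2, Atic, Nme1 and Dtymk, are shown because all of them lay close to 0, with log2 ratios from -0.12 to -0.028. The stretch around each E-box is given for the 6 windows that hold one, 2 of them of Nme1 with different start sites, on the strand of the gene, with the E-box in capitals.
Paics (chr5:76951087-76951116, plus strand, 197 bases before the start site): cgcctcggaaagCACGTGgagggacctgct
Impdh2 (chr9:108560314-108560343, plus strand, 104 bases before the start site): gagctcgataagCACGTGgttacccagctc
Atic (chr1:71557137-71557155, plus strand, 1 base before the start site): ggacctcggggtCACGTGg
Nme1 (chr11:93968273-93968302, minus strand, 12 bases before the start site): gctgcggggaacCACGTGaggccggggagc
Nme1, other start site (chr11:93968037-93968066, minus strand, 23 bases before that start site): agcttgatacgcCACGTGggctcgcctttg
Dtymk (chr1:93802065-93802094, minus strand, 142 bases before the start site): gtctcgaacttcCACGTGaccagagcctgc
The E-box members had a median log2 ratio of -0.045, and the 26 tested members with a window but no E-box one of -0.26. The contrast ran the same way for the other motifs, with medians of -0.12 (9 members) and -0.26 (22) with and without an E2F-type sequence, -0.11 (12) and -0.29 (19) for CCAAT, and 0.035 (2) and -0.21 (29) for TGATGCA. The motif groups share members, so these contrasts are not separate: Atic, Dtymk and Impdh2 are in the E-box, E2F-type and CCAAT groups. All 5 E-box members are also among the 17 tested members of higher mean FPKM, whose median was -0.045 too. The E-box group was singled out after its values had been seen, and none of these differences was tested.

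Across the whole set, differences were small. A gene was called where its log2 ratio reached 1 in either direction with an adjusted p no higher than 0.001 (exact binomial test, Benjamini-Hochberg), cutoffs taken from the study. By this rule 10.8% of all genes tested were called (7.98% lower and 2.81% higher), and 0 of the 34 members tested. The untested member was Adssl1, the form of adenylosuccinate synthetase known from muscle, with 2 and 1 reads. Without the fold cutoff, 13 members were lower and 2 higher with an adjusted p no higher than 0.001 by the same exact test, where 24.1% and 14.5% of all genes tested passed. At a difference of at least 1.5-fold, taken without a test, 6 members were lower and 0 higher, where 25.7% and 12.1% of all genes tested passed. The 6 members are 17.6% of those tested, but among genes averaging 200 reads or more, a background chosen after the values had been seen, 17.9% were past 1.5-fold lower and 9.31% higher, beside 6 and 0 of 33 members. The median of these 33 members was -0.17, where that of the 6617 genes of this background was -0.074. With scaling by TMM, the median of ratios and the upper quartile, 5, 4 and 5 members were past 1.5-fold lower, where 20.6%, 20.4% and 22% of all genes tested were.

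The members had a median log2 ratio of -0.19, with values from -0.94 to 0.36. Their standard deviation was 0.34, against 0.85 for all genes tested, but these spreads are not matched for depth. Averages of 200 reads or more were found for 33 of the members and for 6617 of the 13442 genes tested. Of the 34, 27 were below 0 (79.4%) and 7 above it, where 58.7% and 41.3% of all genes tested were. The 8 members nearest below 0, Paics, Atic, Impdh2, Ampd2, Umps, Ctps2, Nme1 and Dtymk, were above 0 with TMM and median of ratios scaling. Relative to the median gene, 19 were lower and 15 higher. Together the members took 0.556% of reads in control and 0.502% after HTL treatment. The interval of 18 members lay below 0, that of 5 lay above 0, and that of 11 included 0. Measured from the median gene, 13 intervals lay below it, 11 above it and 10 included it, so the set held members on both sides.

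**Figure D1:**
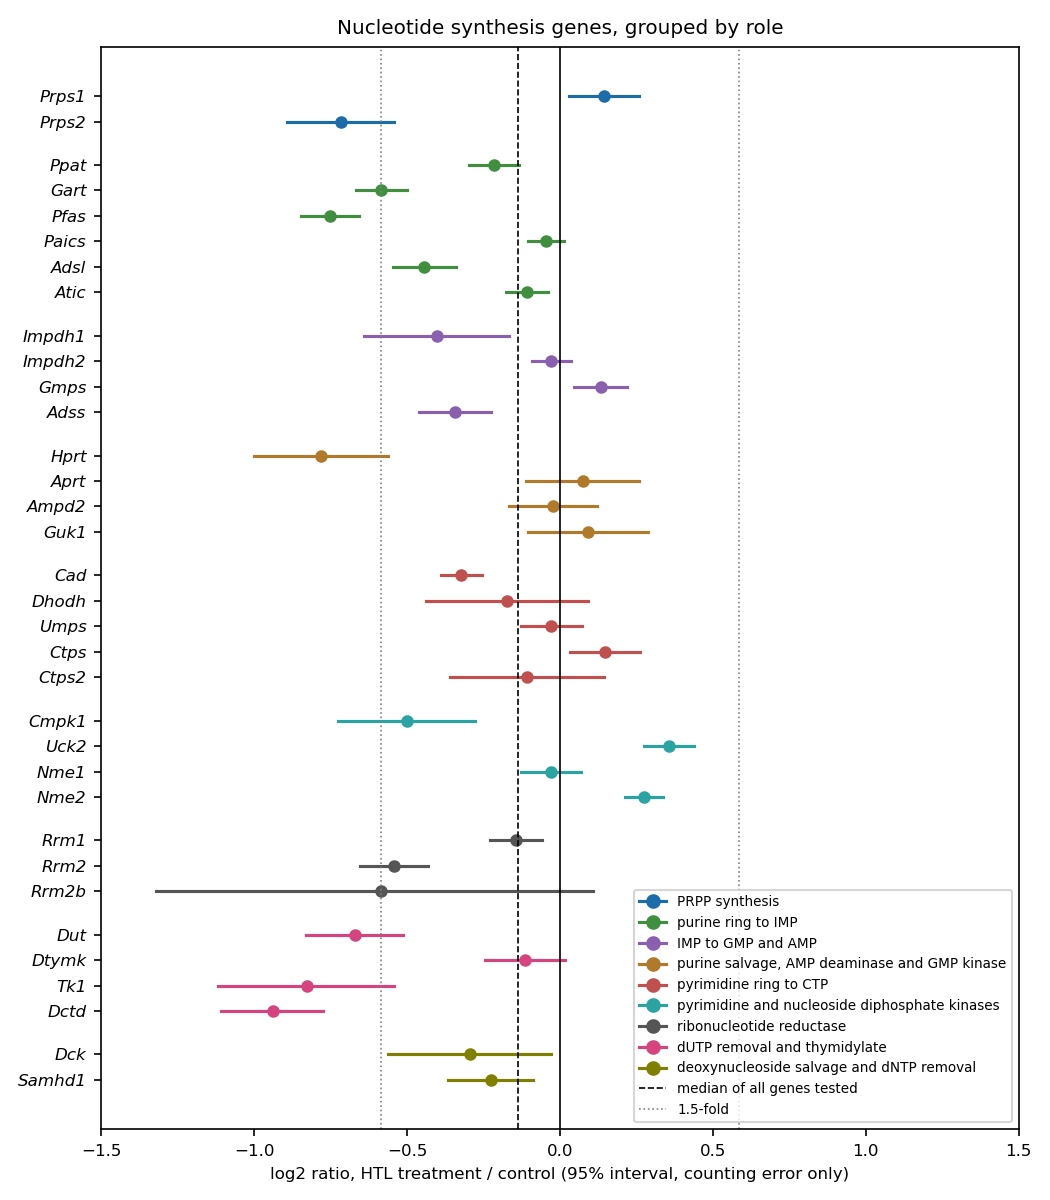
Log2 ratio of HTL treatment to control for the 34 members tested, grouped and coloured by role. Points are the ratios and lines the 95% Clopper-Pearson intervals, which cover counting error only; the dashed line is the median of all genes tested (-0.14) and the dotted lines mark 1.5-fold. Dctd lies lowest at -0.94 and Uck2 highest at 0.36, and all 9 members of the 3 deoxynucleotide groups at the bottom lie below 0.

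The 6 members past 1.5-fold came from 4 roles. Dctd (gene ID 320685; NCBIM37 chromosome 8, 49184446 to 49238587, plus strand) encodes dCMP deaminase, which makes dUMP for thymidylate. It had 949 control and 435 HTL reads, or 42.7 and 22.3 FPKM. The log2 ratio was -0.94 (95% interval -1.11 to -0.77), 1.92-fold lower, and 13.8% of all genes tested lay below it. Tk1 (chromosome 11, 117676840 to 117687406, minus strand), the thymidine kinase of dividing cells, had 307 control and 152 HTL reads (log2 ratio -0.83, -1.12 to -0.54). Its exons share 83 bases with those of Afmid on the opposite strand, which had 79 and 51 reads, and the use of strand in counting is not given. Hprt (chromosome X, 50341314 to 50374836, plus strand), which salvages hypoxanthine and guanine, had 512 control and 262 HTL reads (log2 ratio -0.78, -1.001 to -0.56).

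Pfas (chromosome 11, 68799199 to 68824788, minus strand) catalyses an amidation step of the purine ring. It had 2698 control and 1409 HTL reads (log2 ratio -0.75, -0.85 to -0.66). Prps2 (chromosome X, 163784254 to 163820681, minus strand), a PRPP synthetase, had 783 control and 419 HTL reads (log2 ratio -0.72, -0.89 to -0.54). Dut (chromosome 2, 125072926 to 125084344, plus strand) clears dUTP and so keeps uracil out of DNA. It had 918 control and 507 HTL reads (log2 ratio -0.67, -0.83 to -0.51). Of the 6 intervals, only that of Dctd and that of Pfas lay wholly past 1.5-fold, Tk1, Hprt, Prps2 and Dut having upper bounds short of it. Were cultures to vary by a biological coefficient of variation of 0.1, an assumption, edgeR's exact test gave Dctd alone an adjusted p within 0.001 (0.000298), and with 0.2 it gave 0.215.

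Both PRPP synthetases supply the activated sugar, and their values went apart. Prps1 (chromosome X, 136991152 to 137010679, plus strand) had 1235 control and 1200 HTL reads, with a ratio on the log2 scale of 0.14 (0.028 to 0.26), beside -0.72 for Prps2. Prps1 gave 61.2% of the pair's reads in control (95% Clopper-Pearson interval 59.0 to 63.3) and 74.1% after HTL treatment (71.9 to 76.2). The intervals of these shares, which do not depend on the scaling between libraries, did not overlap. The reads of both are partly fractional in the deposited table. Prps1l3, a near copy that carries the same best protein match as Prps1, had 558 and 416 reads. With Prps1 and Prps1l3 summed the log2 ratio was 0.035 (-0.062 to 0.13).

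The 6 enzymes of the purine ring were all below 0, with a median of -0.33, and 2 of them lay above the median gene. Ppat, which commits PRPP to the purine ring, had 2748 control and 2082 HTL reads (log2 ratio -0.21, -0.30 to -0.13). Gart, an enzyme of several activities including folate-dependent formyl transfer, had 3172 control and 1861 HTL reads (log2 ratio -0.58, -0.67 to -0.50), just short of 1.5-fold. Adsl, which also acts in AMP synthesis, had a log2 ratio of -0.44 (-0.55 to -0.34). The bifunctional enzymes Paics and Atic were nearest to 0. Paics had 5144 control and 4385 HTL reads (log2 ratio -0.045, -0.10 to 0.014), and Atic had one of -0.11 (-0.18 to -0.039). Both were above 0 with TMM scaling (0.085 and 0.022). The steps of this route did not share 1 ratio: the intervals of Pfas and Gart did not overlap those of Paics and Atic. Ppat and Paics lie head to head on chromosome 5 (NCBIM37), with start sites at 77380603 and 77380332, and share 272 exon bases on opposite strands, so their reads cannot be fully told apart without strand.

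The main enzymes of the branch from IMP to GMP lay near 0. Impdh2, the main IMP dehydrogenase here and the entry to GMP, had 4302 control and 3711 HTL reads (log2 ratio -0.028, -0.091 to 0.036), above 0 with TMM scaling (0.10). Impdh1 had 373 control and 248 HTL reads (log2 ratio -0.40, -0.64 to -0.17). Impdh1 gave 7.98% of the pair's reads in control (7.22 to 8.79) and 6.26% after HTL treatment (5.53 to 7.06), intervals that did not overlap. Gmps, which completes GMP, had a log2 ratio of 0.13 (0.048 to 0.22). Adss, which opens the route to AMP, had 1437 control and 997 HTL reads (log2 ratio -0.34, -0.46 to -0.22). Adss gave 99.9% of the reads of Adss and Adssl1 in both libraries.

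Of the purine salvage and interconversion genes, only Hprt was far from 0. Aprt, which salvages adenine, had a log2 ratio of 0.074 (-0.11 to 0.26), Guk1, the GMP kinase, one of 0.092 (-0.10 to 0.29), and Ampd2, an AMP deaminase, one of -0.022 (-0.17 to 0.12), which was above 0 under all 3 other scalings (TMM, median of ratios, upper quartile). The interval of Hprt did not overlap those of Aprt, Guk1 and Ampd2.

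The pyrimidine route was the most even of the larger groups. Its 5 members had log2 ratios from -0.32 to 0.15, a median of -0.11 and a standard deviation of 0.17. Cad, the large enzyme that carries the opening steps of the pyrimidine ring, had 4408 control and 3099 HTL reads (log2 ratio -0.32, -0.39 to -0.26). Dhodh, the mitochondrial step, had one of -0.17 (-0.44 to 0.091), and Umps, which completes UMP, one of -0.029 (-0.13 to 0.071), above 0 with TMM scaling (0.10). The CTP synthetases Ctps and Ctps2 had log2 ratios of 0.15 (0.034 to 0.26) and -0.11 (-0.36 to 0.14), the latter above 0 with TMM scaling (0.023). Ctps had 1258 control and 1226 HTL reads and Ctps2 had 294 and 240. Ctps gave 81.1% of the pair's reads in control (79.0 to 83.0) and 83.6% after HTL treatment (81.6 to 85.5), and these intervals overlapped.

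The kinases held the highest members. Uck2 (chromosome 1, 169156221 to 169215258, minus strand), which phosphorylates uridine and cytidine, had 2266 control and 2551 HTL reads, with a ratio on the log2 scale of 0.36 (0.27 to 0.44). Nme2, a nucleoside diphosphate kinase, had 4073 control and 4335 HTL reads (log2 ratio 0.28, 0.21 to 0.34). Both had an adjusted p under the same limit of 0.001 (exact binomial test), and both were short of 1.5-fold. Nme1 had 1821 control and 1569 HTL reads (log2 ratio -0.029, -0.13 to 0.069), above 0 under all 3 other scalings (TMM, median of ratios, upper quartile). Nme1 gave 30.9% of the pair's reads in control (29.7 to 32.1) and 26.6% after HTL treatment (25.5 to 27.7), intervals that did not overlap. The annotation holds a gene model that joins Nme1 and Nme2, so the split of their reads is uncertain, and summed they had a log2 ratio of 0.19 (0.14 to 0.24). Cmpk1, the UMP and CMP kinase, had 431 control and 268 HTL reads (log2 ratio -0.50, -0.73 to -0.28).

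**Figure D2:**
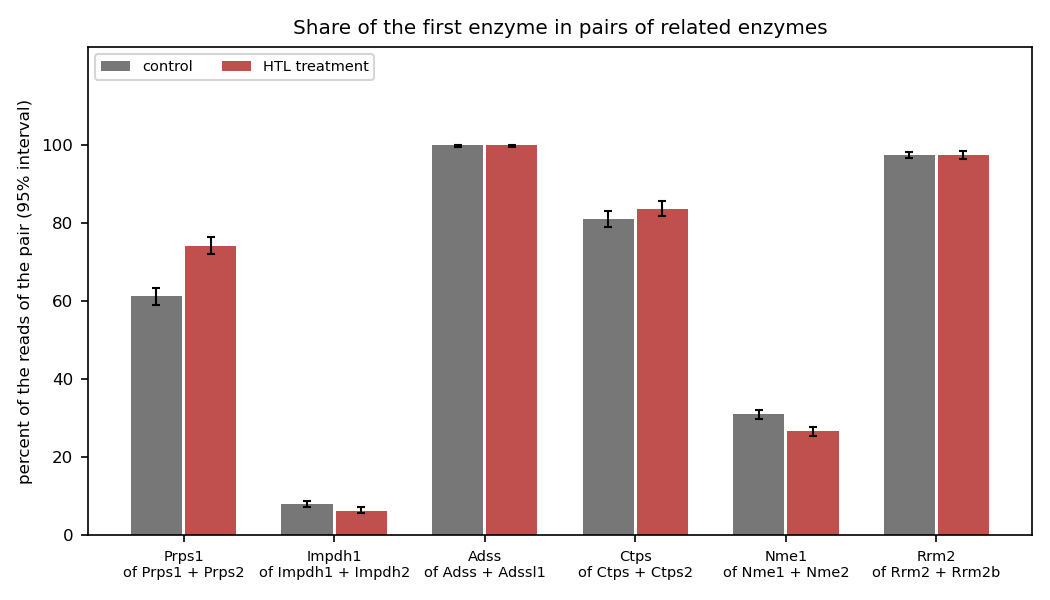
Percent of the reads of a pair of related enzymes that came from the first of them, in the control library (grey) and the HTL treatment library (red). Error bars are 95% Clopper-Pearson intervals and cover counting error only. The share of Prps1 was 61.2% and 74.1%, while those of Adss and Rrm2 were the same within their intervals.

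The 3 deoxynucleotide groups together, joined after their values had been seen, had 9 members, all tested and all below 0. Their median log2 ratio was -0.54, and 8 of the 9 lay below the median gene. The other 25 tested members, grouped as ribonucleotide members, had a median of -0.11, with 18 below 0 and 11 below the median gene. Of all genes tested, 58.7% lay below 0. This split follows the roles listed here and not every substrate of an enzyme. The deoxynucleotide members took 0.0850% of reads in control and 0.0656% after HTL treatment. Ribonucleotide reductase pairs the large subunit Rrm1 with a small subunit, Rrm2 in S phase or Rrm2b, a target of Trp53. Rrm1 had 2478 control and 1973 HTL reads (log2 ratio -0.14, -0.23 to -0.057), the value of the median gene. Rrm2 had 1745 control and 1053 HTL reads (log2 ratio -0.54, -0.65 to -0.43). The intervals of both subunits did not overlap. Rrm2b had only 48 and 28 reads (1.01 and 0.67 FPKM) and a log2 ratio of -0.58 (-1.32 to 0.11), a difference not detectable at this depth. Rrm2 gave 97.3% of the reads of Rrm2 and Rrm2b in the control library and 97.4% after HTL treatment.

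Among the genes of thymidylate supply, Dctd, Tk1 and Dut lay past 1.5-fold, as given above, but Dtymk, the dTMP kinase, did not. Dtymk had 1067 control and 866 HTL reads (log2 ratio -0.12, -0.25 to 0.015), above 0 with TMM and median of ratios scaling. Dck, which salvages deoxycytidine, had a log2 ratio of -0.29 (-0.56 to -0.029), and Samhd1, which breaks down dNTPs, one of -0.23 (-0.36 to -0.089). Both were nearer to 0 than Dctd and Dut, whose intervals did not overlap that of Samhd1.

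Levels per transcript length spanned a wide range. In the control library Nme2 was highest at 473.8 FPKM, followed by Impdh2 at 256 and Paics at 207, and in the HTL treatment library the same genes had 569, 251 and 200.4 FPKM, with Uck2 now at 211. The lowest were Adssl1 at 0.11 and 0.060 FPKM and Rrm2b at 1.01 and 0.67. The median member had 46.5 FPKM in the control library, where the median of all genes in the table was 4 FPKM. The 17 tested members with the higher mean FPKM had a median log2 ratio of -0.045 and 0 past 1.5-fold. The 17 with the lower mean FPKM had a median of -0.44 and held all 6 members past 1.5-fold. Spearman's rho between mean FPKM and log2 ratio was 0.50 over the 34 members and 0.20 over all genes tested, a description across genes of 1 pair of libraries.

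**Figure D3:**
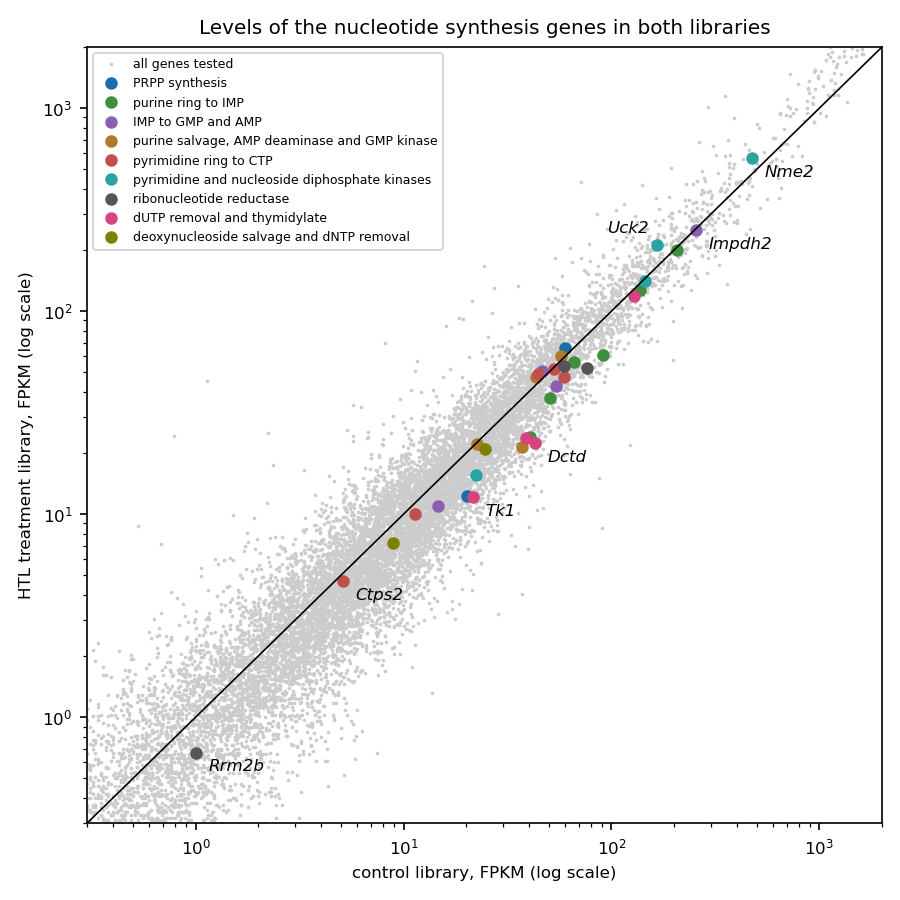
FPKM in the control library against FPKM in the HTL treatment library, both on log scales, for all genes tested (grey) and for the members (coloured by role). The line marks equal levels, and genes beyond the axes are not shown. Dctd and Tk1 lie below the line, and Nme2 at the upper end lies above it.

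Log2 ratios of all genes were lower for longer transcripts, from a median of 0.14 in the shortest of 10 equal bins to -0.38 in the longest, and the members were set against this. Pfas and Cad lie in the longest bin (6190 bases and more), where Pfas had a log2 ratio of -0.37 from the median of its bin and Cad one of 0.055. Dctd, Tk1 and Hprt were past 1.5-fold from the medians of their bins, at -0.83, -0.81 and -0.76, whereas Pfas, Prps2 and Dut were not. By this measure 3 members were past 1.5-fold lower and 0 higher, where 19.6% and 16.4% of all genes tested were. Nme2 lies in the shortest bin and was 0.14 above its median, and Uck2 was 0.38 above that of its own. The part of transcript length in the values was not tested further.

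**Figure D4:**
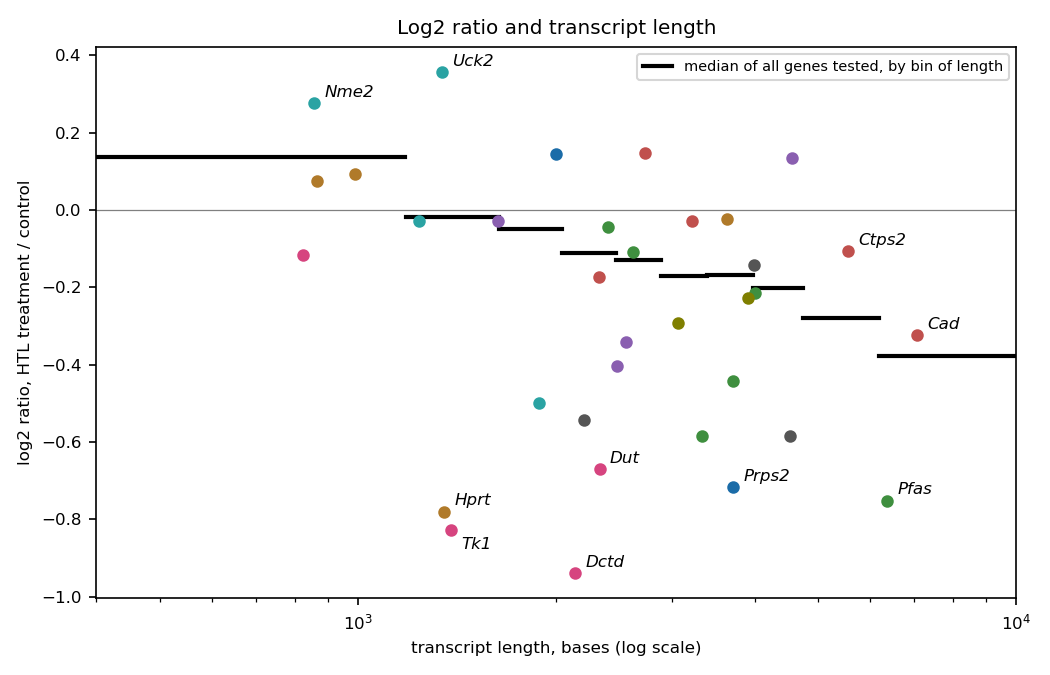
Log2 ratio of HTL treatment to control against transcript length on a log scale, for the 34 members tested (points, coloured by role as in the plot of ratios). Black bars are the medians of all genes tested in each of 10 bins of length, and the outer bars run past the edges of the plot. Dctd, Tk1 and Hprt lie far below the bar of their own length, and Pfas lies below a bar that is itself the lowest, at -0.38.

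Other genes of the same pathways, listed separately from the members, were described in the same way. Of 63 genes, 60 matched a row and 51 were tested, with a median of -0.19. At 1.5-fold, 5 were higher and 11 lower (21.6%), where 12.1% and 25.7% of all genes tested were, and 1 was called in each direction, where 2.81% and 7.98% were called. Slc25a33, a mitochondrial carrier of pyrimidine nucleotides, had 144 control and 280 HTL reads (log2 ratio 1.14, 0.85 to 1.44). Nt5e, the cell surface enzyme that turns AMP into adenosine, had 115 control and 17 HTL reads (log2 ratio -2.54, -3.40 to -1.83). In the thymidylate cycle, Tyms, which makes dTMP, had 951 control and 735 HTL reads (log2 ratio -0.19, -0.33 to -0.046). The following genes were named after their values had been seen, as all those past 1.5-fold. Besides Slc25a33, the higher ones were the pyrimidine breakdown gene Upb1 (log2 ratio 1.04), the uridine kinases Uck1 and Uckl1 (0.87 and 0.66) and Slc25a36, another mitochondrial pyrimidine carrier (0.85). Besides Nt5e, the lower ones were Tymp (-1.53), Uprt (-1.20), Ampd3 (-1.05), Gmpr2 (-0.84), Shmt1 (-0.77), Nudt1 (-0.76), Ak6 (-0.76), Cda (-0.74), Ak4 (-0.72) and Tk2 (-0.60). Of these, Upb1, Tymp, Uprt, Ampd3 and Cda had at most 51 reads in either library. In the thymidylate cycle the serine hydroxymethyltransferases lay on opposite sides, Shmt1 with 1608 control and 831 HTL reads and Shmt2 with 2133 and 2606 (0.47).

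Several members are known as S phase genes, so 20 genes of DNA replication and S phase entry were read beside them. All 20 were tested and 0 were called, where 10.8% of all genes tested were. The median log2 ratio of these 20 was 0.12, with 13 above 0 and 15 above the median gene. Of all genes tested, 41.3% were above 0, and the 9 deoxynucleotide members had a median of -0.54 and 0 above 0. Picked after their values had been seen, Mcm3 and Mcm4, subunits of the replicative helicase, had log2 ratios of 0.32 (0.27 to 0.36) and 0.36 (0.28 to 0.44), and the helicase loader Cdc6 had one of 0.84 (0.72 to 0.95). Ccne2 and Pola1 lay on the other side, at -0.79 (-1.11 to -0.48) and -0.76 (-0.97 to -0.55). The S phase genes thus lay on both sides of 0. The difference between the lists was not tested.

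**Figure D5:**
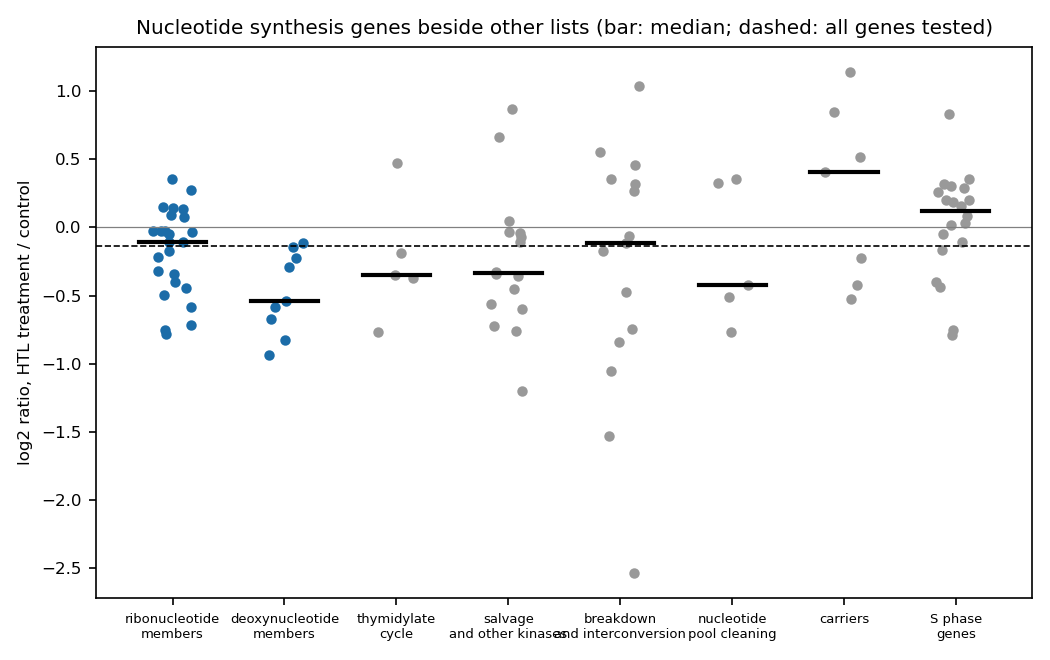
Log2 ratio of HTL treatment to control for tested members grouped by role as ribonucleotide or deoxynucleotide (blue) and tested genes of other lists (grey). Black bars are medians, the dashed line is the median of all genes tested, and points are spread sideways only to be seen. The deoxynucleotide members have a median of -0.54 and the S phase genes one of 0.12.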

How the data were processed

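RNA of 1 control and 1 HTL treatment culture of NE4C cells was sequenced, and groups were taken from the sample titles. According to the study's methods, clean reads were mapped to mouse genome and gene references and the authors used RSEM for read estimates. The submitters' processing notes name mm9. The mapper, versions and use of strand are not given in the sources used here. The deposited estimated counts are not normalized, and fractional values made up 21.8% of the control column and 20.2% of the HTL column. FPKM, as deposited, relates these counts to transcript length and sequencing depth. The log2 ratio, p-value and FDR columns of the authors' own comparison, also deposited, were not used.

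Estimated counts were rounded and compared, for every gene whose libraries summed to 10 reads or more, by the two-sided exact binomial test, with Benjamini-Hochberg adjustment (SciPy 1.17.1, statsmodels 0.14.6). This test compares 2 libraries, not conditions. The 95% intervals are exact Clopper-Pearson and cover counting error only, since each condition had 1 library. No molecular identifiers are described in the study's methods. Models that need replicates could not be fitted. The alternatives were 3 scalings (TMM, median of ratios, upper quartile) and an exact test at assumed coefficients of variation, all from edgeR 4.0.16, besides other read minimums, 5 reads added, FPKM + 1 and a correction for transcript length. The binomial test was checked on simulated counts with known changes. Gene spans came from GENCODE M1 (NCBIM37, the same assembly as mm9).

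All 35 members are accounted for. Values are given for members past 1.5-fold, for the entry enzyme of each branch and for related pairs, and the rest mostly with their ratios and intervals. Of the other lists, called genes and Tyms are named, and 1 other listed gene is not reported here. The members, lists and tests were chosen with earlier results of these data known.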

Additional observations from a re-analysis of the deposited data

How the results depend on the processing

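No paired analysis was possible because there was a single library per group, which also means that none could be left out. The count of 0 members called was also 0 under every alternative run except the adjusted p alone, which gave 15 of 34 because it asks for no fold. The count of 6 past 1.5-fold ran from 4 (median of ratios) to 7 (at least 1 read, which adds Adssl1), and was 3 after the length correction. The median of -0.19 became -0.064 with TMM, -0.057 with the median of ratios and -0.059 after the length correction. Summing Prps1 with Prps1l3, added after the data were seen, left the count at 6.

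The 3 scalings shift every ratio alike, and members near 0 changed sign. TMM gave Paics 0.085, Atic 0.022, Impdh2 0.10, Ampd2 0.11, Umps 0.10, Ctps2 0.023, Nme1 0.10 and Dtymk 0.014. The median of ratios gave Paics 0.092, Atic 0.028, Impdh2 0.11, Ampd2 0.11, Umps 0.11, Ctps2 0.029, Nme1 0.11 and Dtymk 0.021. The upper quartile gave Paics 0.049, Impdh2 0.066, Ampd2 0.071, Umps 0.065 and Nme1 0.064. The length correction, which shifts ratios unequally, gave Paics 0.068, Atic 0.021, Ampd2 0.15, Umps 0.14, Ctps2 0.17, Cad 0.055 and Rrm1 0.058, and Aprt -0.063 and Guk1 -0.045.

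With FPKM in place of reads, which weighs each enzyme by its length, the control and HTL treatment shares were 74.7% and 84.3% for Prps1, 5.39% and 4.20% for Impdh1, 89.7% and 91.3% for Ctps, 23.3% and 19.9% for Nme1, and 98.7% in both for Rrm2. Depth limits Rrm2b and Adssl1, and the spread between cultures cannot be measured with 1 library each.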
